A study of Mus musculus with 4 samples.

Results

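The 10 genes described here mark neural stem cells, dividing progenitors and newborn neurons: Sox2, Nes, Prom1, Hes5, Top2a, Dlx1, Dlx2, Sox4, Sox11 and Dcx. They were chosen by name, and every probe set (several short probes summarised into 1 value) whose platform annotation gave 1 of these symbols alone was taken, 30 of the 45101 on the array. RNA from mouse brain, hindbrain and spinal cord was hybridised to 4 Affymetrix arrays. For 2 arrays a Nugen kit turned the RNA into amplified cDNA, and for the other 2 it became aRNA (antisense RNA) from T7-based amplification. In each preparation 1 array carries the number 0 and 1 the number 1, and the labels do not explain the numbers. Neither the strain, age, genotype and treatment of the mice nor the number of animals is given. Replicate spread may therefore be technical, and each p-value measures only the spread between these arrays. The 2 aRNA arrays differed in sex-linked transcripts, as given below, so their spread cannot be taken as technical alone.

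In the developing nervous system, radial glia line the ventricles, divide and give rise to neurons and then to glia. Sox2 and the Notch target Hes5 hold cells in the progenitor state, and the intermediate filament nestin (Nes) and the membrane protein prominin-1 (Prom1) are found in them. Cells that leave the cycle switch on the related transcription factors Sox4 and Sox11 and then the microtubule-binding protein doublecortin (Dcx). In the adult, neurogenesis is confined to small niches, while Sox2 and Hes5 are also expressed in astrocytes, and Prom1 in ependymal cells.

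Promoter sequence was available for all 10 genes from RefSeq (GRCm38.p6), as 12 windows of 250 bases before a transcript start. Sox11 had, at 1 of its 6 probe sets, the largest difference between the preparations among the member probe sets. Its window is shown with those of Top2a, whose product untangles DNA in dividing cells, and of Hes5, the readout of Notch signalling. The windows are written 5′ to 3′ on the gene's strand. Capitals mark the letters CCAAT or their complement ATTGG in Top2a and Sox11 (the box that the factor NF-Y binds), and in Hes5 the letters TGGGAA or TTCCCA (the core that the Notch partner RBPJ binds).
Top2a, chr11:99024190-99024439, minus strand: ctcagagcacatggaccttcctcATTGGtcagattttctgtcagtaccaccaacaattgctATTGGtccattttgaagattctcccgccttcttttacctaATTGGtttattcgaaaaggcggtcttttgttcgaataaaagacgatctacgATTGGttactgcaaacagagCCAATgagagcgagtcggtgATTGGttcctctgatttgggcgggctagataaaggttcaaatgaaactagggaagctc
Hes5, chr4:154960673-154960922, plus strand: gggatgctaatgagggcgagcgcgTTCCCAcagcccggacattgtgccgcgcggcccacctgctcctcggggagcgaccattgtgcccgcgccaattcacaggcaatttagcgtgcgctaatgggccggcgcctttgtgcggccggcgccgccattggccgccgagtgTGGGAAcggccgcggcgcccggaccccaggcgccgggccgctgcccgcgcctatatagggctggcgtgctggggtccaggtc
Sox11, chr12:27342719-27342968, minus strand: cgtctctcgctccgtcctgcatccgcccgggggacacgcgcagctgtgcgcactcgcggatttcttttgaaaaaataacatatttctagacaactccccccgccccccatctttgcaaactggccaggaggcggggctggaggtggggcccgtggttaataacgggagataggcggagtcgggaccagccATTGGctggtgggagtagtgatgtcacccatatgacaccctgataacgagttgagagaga
The Top2a window held CCAAT on either strand at 6 places and Sox4's at 4, where 1 overlapped TGGGAA. Of 32851 promoter windows of this length, 33.8% held it at least once and 0.213% at 5 or more places. TGGGAA on either strand stood at 2 places in Hes5 and 1 each in Sox4 and the more upstream of the 2 Prom1 windows. It was found in 21.6% of all windows, and at 2 or more places in 2.77%. These matches describe letters, and the arrays do not measure binding.

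Values are given below as log2(intensity + 16), in the order cDNA array 0, cDNA array 1, aRNA array 0, aRNA array 1, and differences are on the same scale. A probe set was taken as above background on an array where it exceeded the 95th percentile of 27 control probe sets for Bacillus transcripts, which was 7.83, 8.04, 7.11 and 7.15. Sex-linked transcripts set aRNA array 0 apart: Xist (1436936_s_at), the RNA of the inactive X chromosome, gave 11.94, 12.51, 8.55 and 15.44, and was lowest on that array at all 3 of its probe sets. The Y-linked Eif2s3y (1417210_at) gave 7.92, 4.75, 13.12 and 6.79. Values without aRNA array 0 are therefore given for the called member probe sets. They are also given for list genes named below as called between the preparations, where leaving it out ends the call. Calls of further list genes ended without it too, among them Ermn of the myelin list and Pdgfra and Gpr17 of the oligodendrocyte progenitor list. Markers of mature tissue were present, with 13 of 14 mature neuron genes, 11 of 11 myelin genes and 11 of 11 astrocyte genes above background on all 4 arrays at 1 or more probe sets. In bulk RNA, fewer cells of a type and less RNA per cell cannot be told apart.

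Of the 30 probe sets, 12 were above background on all 4 arrays, 10 on some and 8 on none. Over all 45037 probe sets that are not controls, 48.1% were above it on all 4 arrays and 14.8% on none. Sox2, Sox4, Sox11, Nes, Prom1 and Hes5 had at least 1 probe set above background throughout, and Dcx, Dlx1, Dlx2 and Top2a had none. Dlx1 was under it on all 4 arrays, as were 9.32% of genes. For Hes5 this depended on the level chosen. At the maximum of the control probe sets (intensity 476.4 on cDNA array 1), 1456010_x_at failed on that array with 309.1. Sox11 at 1453125_at (295.7) and at 1436790_a_at (255.8) failed there too. Counted by array, 15 and 14 member probe sets passed for cDNA (arrays 0 and 1) and 21 and 18 for aRNA, where the background level was lower. Of all probe sets that are not controls, 62.7% and 60.3% passed for cDNA and 71.7% and 71.1% for aRNA. Values of all 30 probe sets are shown in the plot of members by array.

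**Figure D1:**
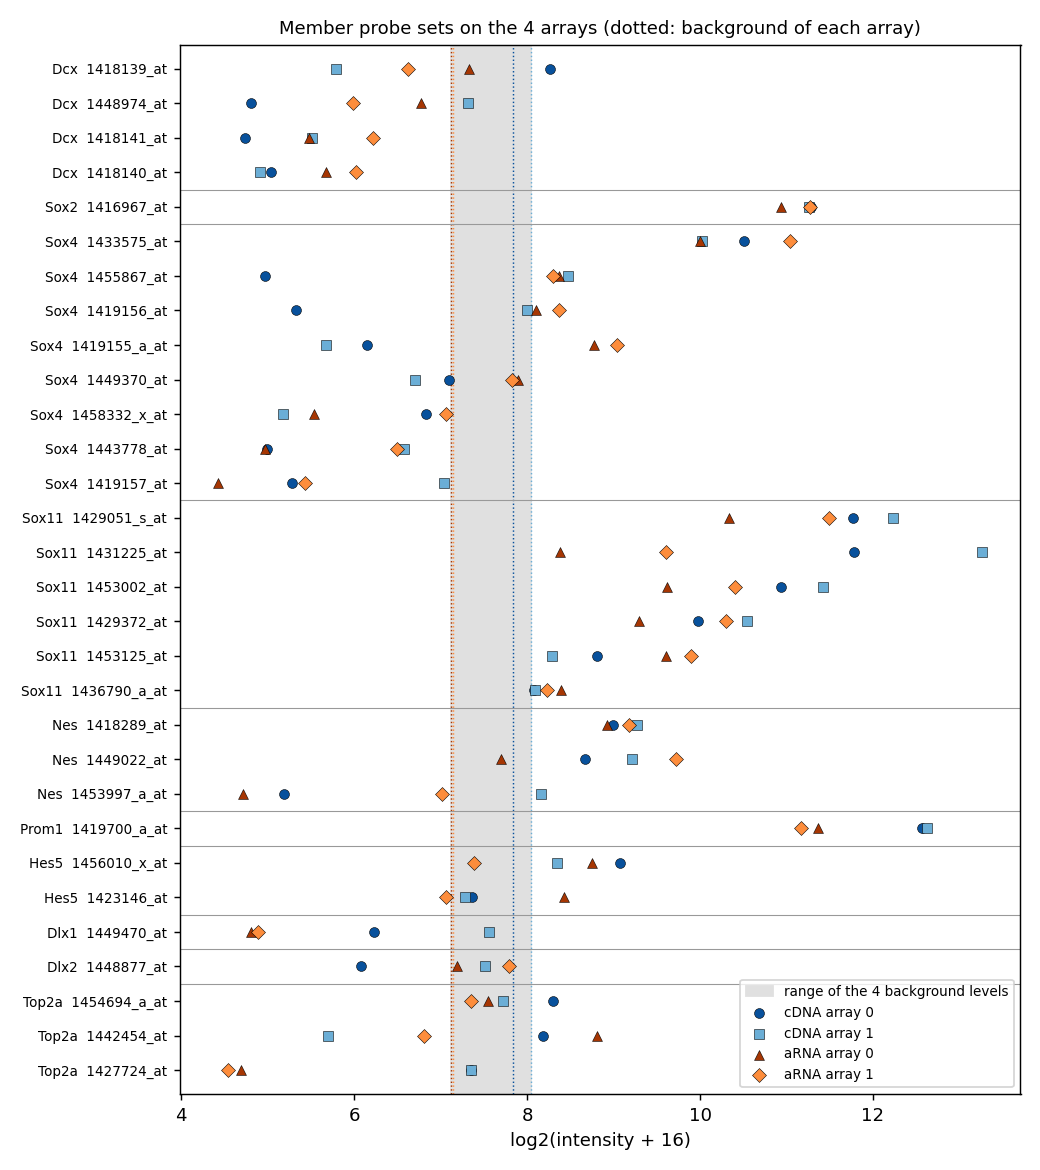
Each row is 1 member probe set, with its log2(intensity + 16) on the 4 arrays as 4 symbols; dotted lines are the background levels of the arrays (7.83, 8.04, 7.11 and 7.15) and the grey band spans them. All 6 Sox11 probe sets, Sox2 and Prom1 lie to the right of every array's own line, whereas all 4 Dcx probe sets lie to the left of it on at least 2 arrays.

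Sox2, a transcription factor that keeps neural stem cells multipotent, was read by 1 probe set (1416967_at) and gave 11.29, 11.25, 10.93 and 11.27. The 4 arrays lay close together, aRNA array 0 being the lowest, and the preparations overlapped. The cDNA mean was 11.27 ± 0.02 and the aRNA mean 11.10 ± 0.24 (SD, n = 2 each), a difference of 0.17 with a standard error of 0.32 (limma adjusted p = 0.693). It was 0.0032 without aRNA array 0 and 0.34 without aRNA array 1.

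Prom1 (1419700_a_at), the membrane glycoprotein also called CD133, gave 12.57, 12.62, 11.37 and 11.17. Both cDNA arrays lay above both aRNA arrays, and the spread within each preparation was small (SD 0.04 for cDNA and 0.14 for aRNA). It was higher on cDNA by 1.33 ± 0.28 (standard error), or 2.51-fold (limma adjusted p = 0.00517), and by 1.43 without aRNA array 0 (adjusted p = 0.0108). Of 6 genes of ependyma and choroid plexus tested, 3 were called higher on cDNA (2 to 5 with 1 array left out) and none lower, against 21.9% and 22.9% of all genes, and their intensities summed to 104891 (array 0) and 177585 (array 1) for cDNA against 2445 and 2292 for aRNA. Ttr, the thyroid hormone carrier secreted by choroid plexus, made up nearly all of the cDNA sums, with 16.63, 17.32, 8.15 and 9.31 (1454608_x_at). Without Ttr the other 5 genes summed to 3226 and 13766 for cDNA and to 2176 and 1674 for aRNA. Of the 14 genes of that list, 4 were above background on all 4 arrays, 9 on some and 1 (Spag17) on none. Their part in the Prom1 difference was not tested.

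Nes had 3 probe sets, which did not read alike. The steadiest, 1418289_at, gave 8.998, 9.27, 8.92 and 9.18, a difference between the preparations of 0.08 ± 0.47 (standard error; limma adjusted p = 0.901). Probe set 1449022_at gave 8.66, 9.21, 7.69 and 9.73, with aRNA array 0 lowest and aRNA array 1 highest, and differed by 0.23 ± 0.70 (adjusted p = 0.813). The third, 1453997_a_at, gave 5.19, 8.16, 4.71 and 7.01 and was above background on cDNA array 1 alone.

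Hes5, a basic helix-loop-helix repressor switched on by Notch, was above background throughout at 1456010_x_at (9.07, 8.34, 8.76 and 7.38). Probe sets with names ending in _x_at may match other transcripts. The preparations overlapped, and the difference of 0.64 ± 0.65 (standard error) did not pass (limma adjusted p = 0.452). At 1423146_at the values were 7.37, 7.28, 8.43 and 7.07, above background on aRNA array 0 alone. On aRNA array 1 this gene had its lowest value at both probe sets.

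Top2a, DNA topoisomerase II alpha, which is made from S phase to mitosis, was above background on all 4 arrays at none of its 3 probe sets. Probe set 1454694_a_at gave 8.30, 7.72, 7.55 and 7.35, above background on cDNA array 0 and both aRNA arrays; both cDNA values lay above both aRNA values, but so did the cDNA background levels. Probe set 1442454_at gave 8.18, 5.70, 8.81 and 6.81, above background on both arrays numbered 0 and under it on both numbered 1. The third, 1427724_at, was under background on all 4 arrays (7.35, 7.35, 4.69 and 4.54). Its cDNA and aRNA values did not overlap, but with both sides under background no fold is given; with no filter it was called higher on cDNA (limma adjusted p = 0.0336), as were 10.4% of all probe sets.

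Dlx1 and Dlx2 are neighbouring homeobox genes of ventral forebrain progenitors, from which GABAergic interneurons arise. Dlx1 (1449470_at) gave 6.23, 7.56, 4.81 and 4.89 and was under background on every array, with both cDNA values above both aRNA values. Dlx2 (1448877_at) gave 6.08, 7.51, 7.19 and 7.79 and was above background on both aRNA arrays only, where it exceeded the level by under 1 on this scale. No difference between the preparations can be sized for either gene.

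Sox11, a transcription factor of newborn neurons, was above background on all 4 arrays at all 6 of its probe sets. At 1431225_at it gave 11.78, 13.26, 8.38 and 9.60, so both cDNA arrays lay above both aRNA arrays. The means were 12.52 ± 1.05 for cDNA and 8.99 ± 0.87 for aRNA (SD, n = 2 each), which is 11.5-fold higher on cDNA (difference 3.53 ± 0.57, standard error; limma adjusted p = 0.00137). Without aRNA array 0 the difference was 2.92 (adjusted p = 0.00162).

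Probe set 1453002_at gave 10.94, 11.42, 9.62 and 10.41 and was also called higher on cDNA, by 1.17 ± 0.41 (standard error; limma adjusted p = 0.0449). This call was lost without aRNA array 0 (0.77, adjusted p = 0.246) and without cDNA array 1 (0.93, adjusted p = 0.1495). Probe set 1429051_s_at, which the platform derives from the same source sequence, gave 11.77, 12.24, 10.33 and 11.49. Its cDNA values also lay above its aRNA values, with a difference of 1.09 that did not pass (adjusted p = 0.0638), and it was 0.51 without aRNA array 0 (adjusted p = 0.369) and 0.86 without cDNA array 1 (adjusted p = 0.212). Without aRNA array 1 it passed (1.67, adjusted p = 0.0101).

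The other Sox11 probe sets did not follow. Probe sets 1429372_at and 1453125_at also share a source sequence with each other; the first gave 9.98, 10.55, 9.29 and 10.30 (difference 0.47, limma adjusted p = 0.448). The second gave 8.81, 8.28, 9.60 and 9.89, with both cDNA arrays below both aRNA arrays (−1.20, adjusted p = 0.0687). It was called lower without cDNA array 0 (−1.46, adjusted p = 0.0467). Probe set 1436790_a_at gave 8.08, 8.09, 8.39 and 8.23, close to background for cDNA and further above it for aRNA, with both cDNA arrays slightly below both aRNA arrays. Across probe sets of this intronless gene the difference between the preparations thus ran from −1.20 to 3.53, and no single value stands for the transcript.

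Sox4, the close relative of Sox11 that acts with it in young neurons, had 8 probe sets, of which 1 was above background on all 4 arrays, 4 on some and 3 on none. The leading probe set, 1433575_at, gave 10.51, 10.02, 9.997 and 11.04. The preparations overlapped and differed by −0.25 ± 0.45 (standard error; limma adjusted p = 0.679). Of the 4 probe sets that share 1 source sequence, 3 were under background on both cDNA arrays and above it on both aRNA arrays. The clearest of them, 1419155_a_at, gave 6.15, 5.68, 8.77 and 9.04, at least 1.96-fold lower on cDNA when the cDNA arrays are set at their background level. It lay outside the probe sets tested; with no filter on dim probe sets it was called (adjusted p = 0.0248), as were 10.8% of all probe sets in that direction. At 1455867_at the values were 4.97, 8.47, 8.36 and 8.30, with cDNA array 0 alone under background. The other members of the shared-source group above background on aRNA gave 5.33, 8.003, 8.10 and 8.36 (1419156_at) and 7.10, 6.70, 7.89 and 7.83 (1449370_at), cDNA being lower on both arrays at each. Their cDNA values lay under background, where the cDNA levels (7.83 and 8.04) were above those of aRNA. With cDNA set at its level, 1419156_at was at least 1.23-fold lower on cDNA. No fold is given for 1449370_at, whose aRNA values did not exceed the cDNA levels on average. The 3 probe sets under background throughout (1419157_at, 1443778_at and 1458332_x_at) ran from 4.43 to 7.06.

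Dcx, the doublecortin of migrating neuroblasts, had 4 probe sets, and 3 were under background on every array. The fourth, 1418139_at, gave 8.26, 5.79, 7.33 and 6.62 and was above background on both arrays numbered 0 and under it on both numbered 1. Probe set 1448974_at, with 4.81, 7.31, 6.78 and 5.99, had its highest value on cDNA array 1, where 1418139_at had its lowest. The remaining probe sets, 1418140_at and 1418141_at, ran from 4.73 to 6.21. The level of Dcx was therefore not measurable at most probe sets and arrays.

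For the test between the preparations, probe sets were kept whose mean over the 4 arrays reached the median of all (8.38), which 11 member probe sets of 6 genes did; 19 were not tested, among them all those of Dcx, Dlx1, Dlx2 and Top2a. Of the 11, 3 were called higher on cDNA (Prom1 and 2 of Sox11), none lower, and 8 did not pass (5 of the 11 had an unadjusted p under 0.05, against 51.3% of all). Among the 22519 probe sets tested 20.2% were called higher and 22.9% lower, so the share of members called higher lay near that of all probe sets. With 1 probe set a gene, 1 of 6 member genes (Prom1) was called higher and none lower, against 21.9% and 22.9% of all genes. Both cDNA arrays lay above both aRNA arrays at 4 of the 11 and below them at 1, against 34.1% and 39.7% of all tested. Over all tested probe sets the difference had a median of −0.11 (−0.25 after median centring of the arrays), and single values are to be read against it.

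**Figure D2:**
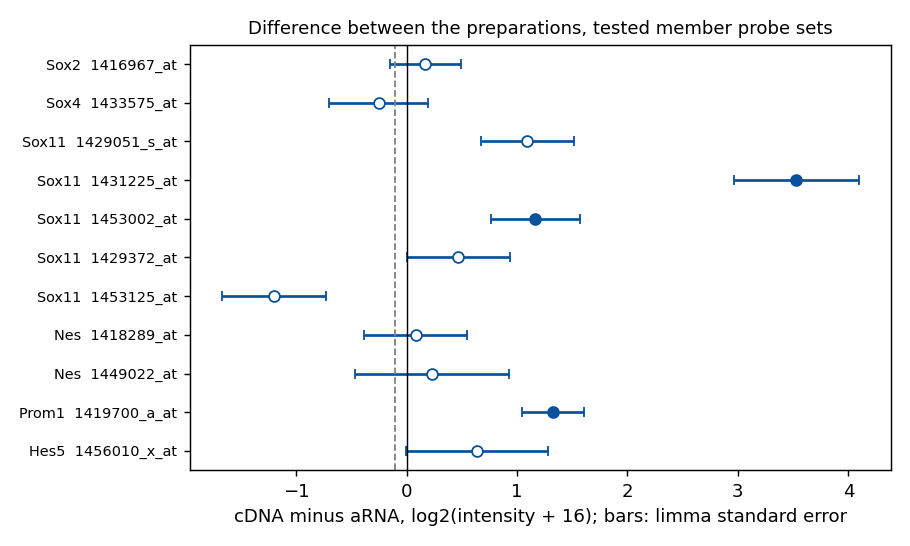
The difference cDNA minus aRNA on the log2(intensity + 16) scale is plotted for the 11 tested member probe sets, with limma standard errors as bars; filled points passed the adjusted p threshold of 0.05, and the dashed line is the median of all tested probe sets (−0.11). Sox11 1431225_at stands farthest to the right at 3.53, and Sox11 1453125_at farthest to the left at −1.20.

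Between the numbers, no member probe set was called. In the additive limma model with preparation and number, 0 of the 11 passed (14 of all 22519, or 0.0622%, did), and 3 had an unadjusted p under 0.05, against 5.86% of all. No other tool was run on this contrast. The 3 were Sox11 at 1431225_at (1.36 ± 0.38, standard error; limma adjusted p = 0.617), Sox11 at 1429051_s_at (0.81, adjusted p = 0.833) and Nes at 1449022_at (1.29, adjusted p = 0.852). The model leaves 1 residual degree of freedom. For aRNA, number 1 against number 0 also sets against each other arrays that differ in sex-linked transcripts.

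By direction, array 1 was higher than array 0 in both preparations at 6 of the 11 tested member probe sets, 4 of Sox11 and 2 of Nes, and lower in both at 1, that of Hes5. The shares over all tested were 24.9% and 26.6%. Several of these member probe sets read the same gene. With 1 probe set a gene, 2 of 6 member genes were higher in both and 1 lower, against 24.9% and 26.6% of all genes. The 4 Sox11 differences lay between 0.47 and 1.49 for cDNA and between 0.79 and 1.22 for aRNA. Nes was higher on number 1 in both preparations at all 3 of its probe sets, by 0.55 and 2.03 at 1449022_at, by 0.27 and 0.26 at 1418289_at and by 2.96 and 2.30 at 1453997_a_at; the last rests on values under background. Hes5 was lower on number 1 at both probe sets, by −0.73 (cDNA) and −1.37 (aRNA) at 1456010_x_at and by −0.09 and −1.36 at 1423146_at. Probe set 1423146_at was above background on aRNA array 0 alone, so its differences rest on values under background. Top2a at 1442454_at differed by −2.24 on average over the preparations, number 1 lying under background in both, and 1454694_a_at by −0.58 (cDNA) and −0.20 (aRNA). With no filter the lowest adjusted p of any of the 30 probe sets was 0.659 (1431225_at).

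Markers of other cells were read between the numbers as well, where 24.9% of all genes were higher on number 1 in both preparations and 26.6% lower. Of 9 microglial genes tested, 6 were higher on number 1 in both preparations and none lower in both, and 2 were called higher, as were 0.0837% of all genes: the signalling adaptor Tyrobp (2.74, limma adjusted p = 0.022) and the complement subunit C1qa (2.70, adjusted p = 0.0175). Both calls were lost without an intensity trend and without the preparation term, where no probe set was called. Without the aRNA arrays Tyrobp gave 11.76 and 13.71 and C1qa 9.54 and 12.11 on cDNA arrays 0 and 1, a difference with no test. Intensities of the 9 microglial genes summed to 48806 (array 0) and 77274 (array 1) for cDNA, and to 13041 and 81675 for aRNA. Of the 12 genes of that list 11 were found on the array, 9 of them above background on all 4 arrays. Of endothelial and pericyte genes, whose cells can express Nes, 4 of 8 had lower values on number 1 in both preparations and none higher in both; none was called, and the sums were 96960, 79030, 23802 and 25236. Astrocyte genes had higher values in both at 6 of 11 and lower at 1, and none was called. Of 15 proneural and immature neuron genes, 8 were higher in both and 1 lower, and of 13 mature neuron genes 7 and 1. These counts were 6 and 1 of 14 for radial glia and 6 and 2 of 14 for cell cycle genes. They were 4 and 1 of 10 for oligodendrocyte progenitors and 3 and 0 of 6 for ependyma and choroid plexus. Lower counts were the larger for myelin (2 and 4 of 11), the Notch pathway (2 and 3 of 18) and embryonic genes (0 and 2 of 5). The part of the listed cells in the Nes, Sox11 and Hes5 values was not tested.

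**Figure D3:**
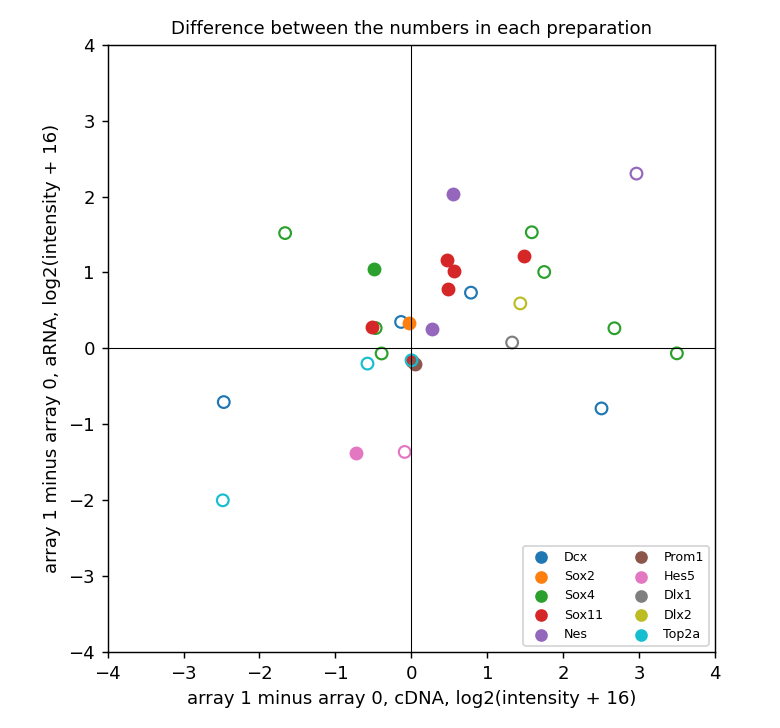
For each of the 30 member probe sets, the difference array 1 minus array 0 between the cDNA arrays (horizontal) is set against that between the aRNA arrays (vertical), both on the log2(intensity + 16) scale; filled points were above background on all 4 arrays, open points were not. The filled points of Nes and 4 of Sox11 lie at the upper right and that of Hes5 at the lower left, while every point past 1.49 from 0 on the cDNA axis is open.

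Other genes of the same programmes were read from gene lists drawn up for this comparison, with the stage of the tissue in view. Whether the genes of a list are confined to 1 stage or cell type was not tested. Above background on all 4 arrays at 1 or more probe sets were 15 of 17 radial glia and stem cell genes, 17 of 20 Notch pathway genes and 15 of 23 proneural and immature neuron genes. The same held for 13 of 29 cell cycle and mitosis genes, 5 of 12 genes of Dlx-type interneuron specification and 3 of 12 genes of embryonic stages. For comparison, 64.4% of all 18193 named genes met this mark, and 6 of the 10 members. The proliferation marker Mki67 and the mitotic kinase gene Cdk1 were above background on some arrays only, as were the fetal RNA-binding protein genes Lin28a and Lin28b. So were the proneural and intermediate progenitor genes Neurog1 and Eomes. Under background on all 4 were only 1 of 23 proneural and immature neuron genes (Neurog2) and 1 of 17 radial glia genes (Emx2). The same held for 3 of 12 Dlx-type genes (Dlx5, Dlx6 and Lhx8) and 1 of 12 embryonic genes (Hba-x). It held for none of the cell cycle or Notch pathway genes. Of the genes listed for oligodendrocyte progenitors, 9 of 10 met the mark, besides the mature neuron, myelin and astrocyte genes given above. Which genes pass depends on the probe sets' affinity as well as on the transcripts, so levels of different genes are not set against each other.

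**Figure D4:**
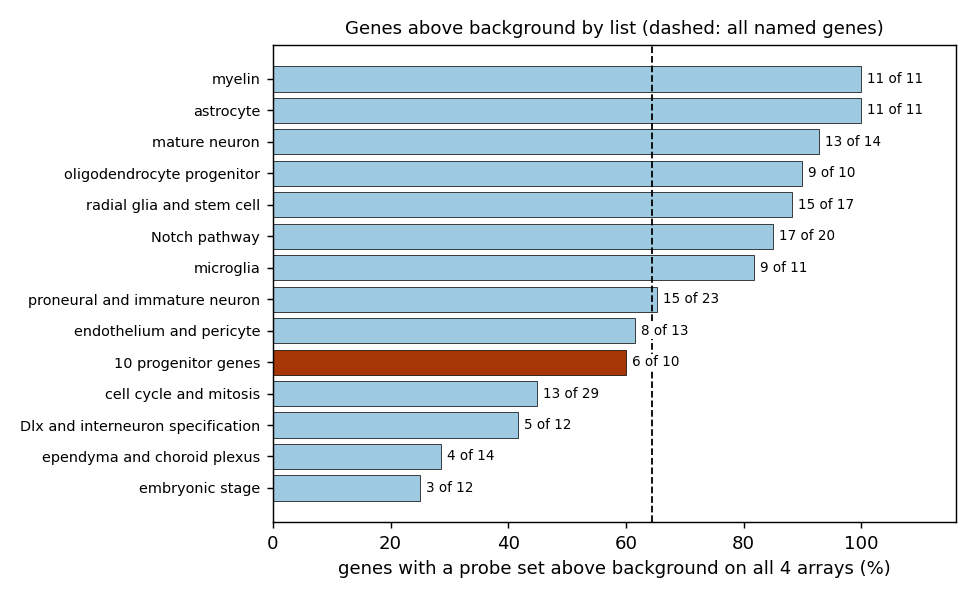
Bars give, for each gene list, the percent of its genes on the array with a probe set above background on all 4 arrays, with the counts at the bar ends; the dashed line is the share of all named genes (64.4%). Myelin and astrocyte genes are at 11 of 11, and genes of embryonic stages are lowest with 3 of 12.

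Between the preparations these lists held calls in both directions, read with the brightest tested probe set of each gene, where 21.9% of all 11945 genes were called higher on cDNA and 22.9% lower, with a median of −0.06. Of 14 radial glia genes tested, 5 were higher (3 without aRNA array 0 or without cDNA array 1) and 3 lower (median 0.26), among them the intermediate filament Vim (4.63) and the gliogenic factor Sox9 (3.72) higher, and Fabp7, a fatty acid carrier of radial glia (−1.94), and Hopx (−1.54) lower. Of 18 Notch pathway genes, 7 were higher and 2 lower (1 without aRNA array 0; median 0.42): the receptor gene Notch2 differed by 5.18, the ligand gene Jag1 by 2.90 and the inhibitor Numb by −2.28. The ligand gene Dll1, under background on both cDNA arrays, was at least 4.28-fold lower on cDNA, a call lost without aRNA array 0 (limma adjusted p = 0.0649). Sox9 stayed called without that array, at 2.57 (adjusted p = 0.000666).

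Dividing-cell genes split as well. Of 14 cell cycle genes tested, 4 were higher and 3 lower on cDNA (median −0.08), with the ribonucleotide reductase subunit Rrm2 (3.88) and survivin, Birc5 (2.43), higher. The spindle genes Aurka and Tpx2, each under background on 1 cDNA array, were at least 2.35-fold and 2.91-fold lower. Both calls were lost without aRNA array 0 (limma adjusted p = 0.154 and 0.125) and without aRNA array 1 (0.243 and 0.206), that of Aurka also without cDNA array 1 (0.14) and that of Tpx2 without cDNA array 0 (0.117). With either aRNA array left out the list held fewer calls in both directions, and with either cDNA array left out fewer higher calls. Of 15 proneural and immature neuron genes, 4 were higher and 3 lower (median 0.27): Neurod1 (4.03) and Marcksl1 (1.77) were higher on cDNA, and the growth cone protein gene Gap43 (−1.60) and Stmn2 (−1.12) lower.

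Of the Dlx-type list 4 genes were tested, and Gad1 (3.83) and Gad2 (3.41), the enzymes of GABA synthesis, were higher and Meis2 (−1.05) lower (median 1.43); Meis2 was not called without cDNA array 0 (−0.71, limma adjusted p = 0.0855). In the embryonic list 4 of 5 tested were higher and none lower (median 3.67). Fewer were called higher with aRNA array 0, aRNA array 1 or cDNA array 0 left out. Dlk1, a paternally expressed Notch-like ligand gene, was at least 33.9-fold higher, and Crabp2, a retinoic acid carrier also made in meninges, at least 16.03-fold, both under background on both aRNA arrays. Endothelial and pericyte genes, 4 of 8 higher and none lower (median 1.78), moved the same way, and so did those of ependyma and choroid plexus (median 2.18); their part in the embryonic list's values was not tested. Counts higher and lower on cDNA were 4 and 1 of 13 for mature neurons, 2 and 2 of 11 for myelin, 1 and 3 of 10 for oligodendrocyte progenitors, 2 and 2 of 11 for astrocytes and 1 and 1 of 9 for microglia. With 1 array left out these counts, higher and lower in turn, ranged over 3 to 4 and 0 to 1 for mature neurons and 2 and 1 to 3 for myelin. They ranged over 0 to 2 and 1 to 4 for oligodendrocyte progenitors, 2 to 4 and 0 to 3 for astrocytes, and 0 to 4 and 0 to 3 for microglia. Between the numbers, none of these 13 lists but that of microglia held a call.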

How the data were processed

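The 4 arrays were grouped by preparation from the sample titles. The authors deposited 1 linear intensity for each probe set; the software that summarised the probes was not given in the sources used here. A 2% trimmed mean of 2500.02 stood on every array, so the values had been scaled before deposit, and they were kept. The number of arrays limits the precision.

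Values were taken as log2(intensity + 16), which understates changes of dim probe sets. Background percentiles were taken on that scale; a fold against arrays under it is a lower bound, with each such array raised to it. Of 45037 probe sets that are not controls, the 22519 with a mean at or above the median were tested with limma 3.58.1 in R 4.3.3 (lmFit, eBayes with trend, Benjamini-Hochberg adjustment over all tested, threshold 0.05): cDNA against aRNA, and the numbers in an additive model with preparation. The procedure was tested on simulated data. The simulation gave all probe sets the same spread and used large changes only, so it does not show how smaller changes or unequal spreads fare. Symbols came from the platform annotation (1 symbol for 34945 probe sets), for the lists updated through a RefSeq gene table (34741 found). Where several probe sets read 1 gene in a list, the one with the highest mean was used. The members, the gene lists and the tests were chosen with earlier results of these data known. Every member probe set is accounted for. From the lists, up to 2 genes called in each direction were named by size of difference, in the 6 lists nearest the members and for microglia; genes named as under background, and Ttr, were chosen after their values were seen. Alternatives were pseudocounts of 1 and 64, other filters, scalings and background levels, no trend, no _x_at or _s_at probe sets, a replicate block and leaving out each array; reading the list genes without each array was added after seeing the data. Plots used Python 3.11.15 with matplotlib 3.10.9.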

Additional observations from a re-analysis of the deposited data

Results flagged for a closer look

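Among the 12 member probe sets above background on all 4 arrays, some moved in opposite directions in the 2 preparations or at the 2 numbers. The difference of the differences was not tested, as 1 array stands for each combination. From array 0 to array 1, Sox4 (1433575_at) gave −0.49 for cDNA and 1.04 for aRNA, which differ by −1.53. Sox11 (1453125_at) gave −0.52 and 0.29, which differ by −0.81, and Sox2 (1416967_at) gave −0.032 and 0.33, which differ by −0.37. Prom1 (1419700_a_at) gave 0.051 and −0.20, apart by 0.25, and Sox11 (1436790_a_at) gave 0.0054 and −0.17, apart by 0.17.

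From aRNA to cDNA, Nes (1449022_at) gave 0.97 at number 0 and −0.51 at number 1, a change of −1.48. Sox4 (1433575_at) gave 0.51 and −1.02, and Sox2 (1416967_at) 0.35 and −0.013, with changes of −1.53 and −0.37 as above. Over all tested probe sets, arrays 0 and 1 of a preparation lay apart by a median of 0.37 for cDNA and 0.33 for aRNA.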

How the results depend on the processing

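With 2 arrays a preparation and dim probe sets near background, most member values have wide errors. The count of member probe sets called between the preparations was 3 and lay between 2 and 4 under every alternative run (2 to 4 with 1 array left out), and that between the numbers was 0 under every alternative fitted. The count above background on all 4 arrays was 12, and 9 to 14 with other background levels. Prom1 (1.18 to 1.43, adjusted p 0.00253 to 0.0215) and Sox11 at 1431225_at (2.78 to 4.27, adjusted p 1.68e-05 to 0.0114) were called under every alternative in which they were tested. Sox11 at 1453002_at was called in 7 of 12; it was not without an intensity trend (adjusted p = 0.0615), with median centring (1.02, adjusted p = 0.0669), with no filter (0.0736), without aRNA array 0 or without cDNA array 1. Sox11 at 1453125_at was called lower without a trend (adjusted p = 0.0354) and with median centring (−1.35, adjusted p = 0.0455). Sox11 at 1429051_s_at was called with the filter at the 75th percentile (adjusted p = 0.0389). With no filter, Top2a at 1427724_at was also called (adjusted p = 0.0336), on values under background.

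Small differences between the preparations that were not called changed sign in 9 cases. Nes at 1418289_at gave −0.067 with median centring and −0.014 with quantile normalization. With 1 array left out it ranged from −0.053 (without cDNA array 1; −0.048 without aRNA array 0) to 0.22, and Nes at 1449022_at from −0.79 (without aRNA array 0; −0.046 without cDNA array 1) to 1.24. The ranges were −0.038 (without aRNA array 0) to 0.98 for Sox11 at 1429372_at, −0.77 to 0.27 (without aRNA array 1) for Sox4 at 1433575_at, and −0.048 (without aRNA array 1) to 1.33 for Hes5 at 1456010_x_at. The cause was not tested.

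The numbers need not pair the samples: the array 1 minus array 0 differences of the preparations correlated at r = 0.041 over the tested probe sets. With the number as a replicate block, 4 member probe sets were called (Sox11 at 1429051_s_at was added, adjusted p = 0.0243). Over all probe sets, 9722 were called between the preparations and 6454 with the filter at the 75th percentile. Between the numbers 14 were called, 0 without a trend or without the preparation term, 8 with median centring, 28 with no filter, 9 with a pseudocount of 64, 55 with quantile normalization and 7 without _x_at and _s_at probe sets. With an array left out the additive model has no residual degrees of freedom, so the differences within each preparation stand in its place.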
